A study of Mus musculus with 7 samples.

Results

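The transcripts examined were those of 10 mouse genes of the NF-kB pathway, namely the subunits Nfkb1, Nfkb2, Rela and Relb and the inhibitors Nfkbia, Nfkbib, Nfkbie, Nfkbiz, Bcl3 and Tnfaip3. They were chosen by name, with earlier results of these data known. Every non-control probe annotated with one of these names was taken, which gave 14 of the 39429 probes of the array. The cells were C2C12, an established line of mouse muscle cells that can be differentiated from dividing myoblasts into fused myotubes. Recipient cells, described in the paper as myotubes, were incubated in serum-free medium for 24 h with exosomes. These are small vesicles shed by cells, and they had been collected from other C2C12 cultures. Donor cells for EXO-Post Palm had received 0.5 mM palmitate, a saturated fatty acid, and those for EXO-Post BSA had received the carrier protein BSA alone. By the methods, collection took place 9 h after the fatty acid had been removed. All recipient cells thus received exosomes, and no array without exosomes was analysed here. There were 4 arrays of EXO-Post BSA and 3 of EXO-Post Palm, which the labels call biological replicates, each hybridised with material labelled from 100 ng of RNA. The source label names C2C12 for every sample and was used, although a separate cell line label gives that name for 1 sample and names that count upward from it for the other 6. The comparison addresses whether vesicles from palmitate-treated muscle cells change the transcriptome of other muscle cells.

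NF-kB transcription factors are dimers of proteins that share a Rel homology domain. In resting cells they are held in the cytoplasm by IkB proteins, and cytokines or Toll-like receptor ligands activate a kinase complex that marks IkB for destruction, so that the dimers enter the nucleus. Several inhibitors are themselves induced by NF-kB and close a feedback loop. In skeletal muscle the pathway is known for its part in inflammation and wasting, and palmitate added directly to muscle cells is known to activate it. Its activity is set largely by the location of the proteins, which an mRNA array does not measure.

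The promoters of the inhibitors are shown because induction through a kappaB motif is the textbook basis of this feedback loop. RefSeq windows of 250 bases before to 50 bases after each transcription start (GRCm38.p6) were given for 7 of the 10 genes. The kappaB consensus, searched on both strands with overlapping matches counted, occurred for Nfkb2, Nfkbia, Nfkbie, Bcl3 and Tnfaip3. Nfkb2 had 3 windows, each with a match, and Tnfaip3 had 2, of which the second held none. Stretches and positions below are those of the first window of each gene. It did not occur in those of Rela and Nfkbib, and no entry was given for Nfkb1, Relb and Nfkbiz. Of all 32851 windows in the table, 4.51% held a match. The stretches below run 5′ to 3′ on the strand of the gene, with the matches in capitals. Those of Nfkb2 (chr19:46304597-46304736, plus strand), Nfkbia (chr12:55492648-55492787, minus strand), Nfkbie (chr17:45555560-45555699, plus strand) and Tnfaip3 (chr10:19015411-19015550, minus strand) are the 140 bases before the start, and that of Bcl3 (chr7:19822736-19822765, minus strand) is 30 bases around it.
Nfkb2: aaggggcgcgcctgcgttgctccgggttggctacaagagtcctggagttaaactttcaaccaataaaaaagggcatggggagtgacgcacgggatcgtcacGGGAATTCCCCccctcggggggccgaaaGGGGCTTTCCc
Nfkbia: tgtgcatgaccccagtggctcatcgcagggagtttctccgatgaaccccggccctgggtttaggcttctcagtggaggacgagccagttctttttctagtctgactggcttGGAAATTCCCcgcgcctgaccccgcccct
Nfkbie: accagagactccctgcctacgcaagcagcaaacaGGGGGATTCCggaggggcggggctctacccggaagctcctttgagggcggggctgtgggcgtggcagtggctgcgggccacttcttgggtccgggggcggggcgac
Tnfaip3: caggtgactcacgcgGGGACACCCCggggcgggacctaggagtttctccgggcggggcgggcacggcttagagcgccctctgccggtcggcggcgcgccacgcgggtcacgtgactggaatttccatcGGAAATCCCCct
Bcl3: agtcggcggcagGGGAAGTCCCgctgcccg
The first capitals of Nfkb2 are overlapping matches that begin 39 and 38 bases before the start, and its second match begins 11 bases before it. The match of Nfkbia begins 29 bases before the start and that of Nfkbie 106 bases before it. Tnfaip3 holds matches that begin 125 and 12 bases before its start, and the match of Bcl3 begins 3 bases after it. A match describes letters in the window and does not show that a factor binds there.

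Signals below are log2 of the processed intensity minus the 75th percentile of the same array, so 0 is that percentile, and differences are EXO-Post Palm minus EXO-Post BSA on this scale. Values of a group are listed in the order of its replicate numbers. Levels of different probes are not compared, since brightness depends on the probe. A probe was tested with limma if in either group at least 75% of the arrays had it well above background, as the scanner software calls it, which left 21589 probes and 13 of the 14 of the members. These 13 were well above background on all 7 arrays. Between 48.3 and 70.3% of all probes were well above background on an array, and normalised signals of any pair of arrays correlated at 0.947 to 0.984. Arrays lay on 4 slides. EXO-Post Palm replicate 1 shared slide 1 with EXO-Post BSA replicates 1 and 2, and EXO-Post Palm replicate 3 shared slide 3 with EXO-Post BSA replicate 4. EXO-Post BSA replicate 3 and EXO-Post Palm replicate 2 each lay alone, so for these slide and condition cannot be told apart.

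The 6 probes of the 4 subunits were all higher on average with EXO-Post Palm, those of Nfkbiz and Bcl3 were higher, those of Nfkbia and Nfkbie were lower, and that of Tnfaip3 was lower on every EXO-Post Palm array than on any EXO-Post BSA array. None of the 13 member probes passed a Benjamini-Hochberg adjusted p of 0.05 by limma, a threshold that 0.533% of all tested probes passed. At an unadjusted p under 0.05 by limma there were 6 member probes, 5 higher and 1 lower, and of all tested probes 4.85% reached it higher and 5.19% lower. The methods' t-test also gave 6 members unadjusted, and 0 after Benjamini-Hochberg adjustment. By limma the 6 were those of Rela, Nfkbiz, Bcl3 and Tnfaip3, and 1 each of Nfkb1 and Relb. The groups did not overlap for 6 member probes, again 5 higher and 1 lower, with the probe of Nfkb2 in place of that of Rela, and for 11.3% of all tested probes, 5.40% higher and 5.87% lower. The median difference of the 13 probes was 0.43, and that of all tested probes was -0.02. With 4 against 3 arrays the smallest 2-sided exact permutation p is 0.0286.

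**Figure D1:**
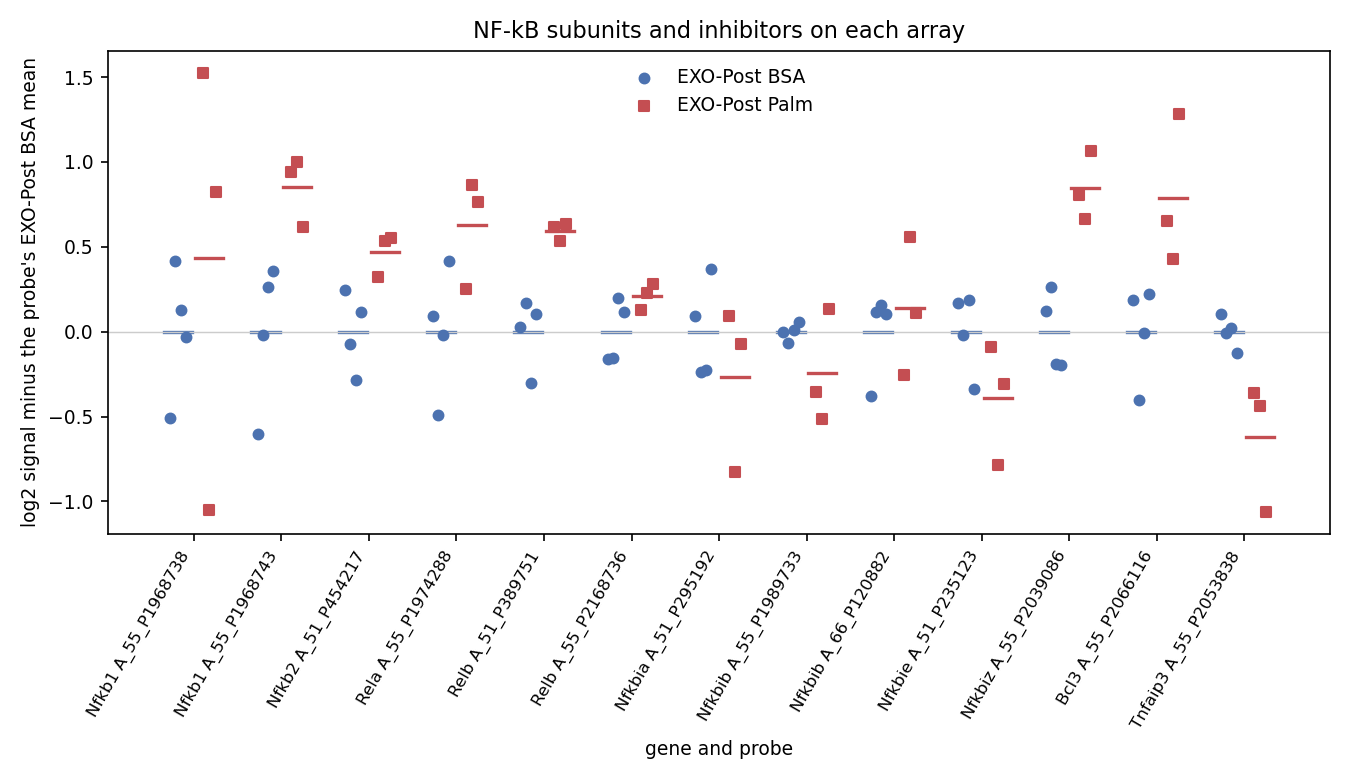
Log2 signal on each array minus the EXO-Post BSA mean of the same probe, for the 13 tested member probes, with EXO-Post BSA as circles, EXO-Post Palm as squares and lines at the group means. The groups are separate for Nfkb1 A_55_P1968743, Nfkb2, Relb A_51_P389751, Nfkbiz, Bcl3 and, in the lower direction, Tnfaip3.

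Nfkb1 encodes p105, the precursor of the p50 subunit, and was measured by 2 probes on chromosome 3 whose starts lie 6929 bases apart on mm9. Probe A_55_P1968743 (chr3:135254550-135254609, minus strand) read -2.27, -1.68, -1.40 and -1.31 with EXO-Post BSA and -0.72, -0.66 and -1.05 with EXO-Post Palm. All 3 EXO-Post Palm arrays lay above all 4 EXO-Post BSA arrays, among which replicate 1 was the lowest. The difference was 0.85 (standard error 0.27, 1.80-fold, 95% confidence interval 0.23 to 1.47), with a limma adjusted p of 0.331 and an exact permutation p of 0.0286. Probe A_55_P1968738 (chr3:135247621-135247680, minus strand) read -3.45, -2.52, -2.81 and -2.97 with EXO-Post BSA and -1.41, -3.99 and -2.12 with EXO-Post Palm. Here the EXO-Post Palm arrays held both the highest and the lowest value, with replicate 1 high and replicate 2 low. The difference was 0.43 (standard error 0.55, limma adjusted p = 0.830), with the widest interval of the 13 member probes, from -0.82 to 1.68. When EXO-Post Palm replicate 1 was left out, this difference became -0.12. The gap between the Nfkb1 probes did not differ detectably between the groups (exact permutation p = 0.771).

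Nfkb2 encodes p100, the precursor of p52 in the alternative pathway, and its probe (chr19:46386146-46386285, plus strand, mm9) crosses an intron. It read 0.91, 0.59, 0.38 and 0.78 with EXO-Post BSA and 0.99, 1.20 and 1.22 with EXO-Post Palm. The groups did not overlap, although EXO-Post BSA replicate 1 and EXO-Post Palm replicate 1 lay close together. The difference was 0.47 (standard error 0.21, 1.39-fold, 95% confidence interval -0.005 to 0.95), with a limma adjusted p of 0.505 and an exact permutation p of 0.0571. Its promoter stretch above holds the most matches to the kappaB consensus of the 5 shown.

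Rela encodes p65, the transactivating subunit of the classical dimer, and was measured by 1 probe (chr19:5648070-5648129, plus strand, mm9). It read 3.74, 3.15, 3.62 and 4.06 with EXO-Post BSA and 3.90, 4.51 and 4.41 with EXO-Post Palm. EXO-Post Palm replicate 1 lay below EXO-Post BSA replicate 4, so the groups overlapped. The difference was 0.63 (standard error 0.27, 1.54-fold, limma adjusted p = 0.493, exact permutation p = 0.0857).

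Relb encodes a subunit that pairs mainly with p52 or p50. Its 2 probes lie on chromosome 7 with starts 51 bases apart, at chr7:20191722-20191781 and chr7:20191773-20191832 (minus strand, mm9), and share 9 bases, so they are not independent measurements. Probe A_51_P389751 read 0.63, 0.77, 0.30 and 0.71 with EXO-Post BSA and 1.22, 1.14 and 1.23 with EXO-Post Palm. The EXO-Post Palm arrays lay within a narrow band (SD 0.05) above all EXO-Post BSA arrays (SD 0.21). The difference was 0.60 (standard error 0.20, 1.51-fold, limma adjusted p = 0.363, exact permutation p = 0.0286). Probe A_55_P2168736 read 0.01, 0.01, 0.37 and 0.29 with EXO-Post BSA and 0.30, 0.40 and 0.45 with EXO-Post Palm, and the groups overlapped at EXO-Post BSA replicate 3. Its difference was 0.21 (standard error 0.20, limma adjusted p = 0.761), and it turned to -0.14 with the authors' processed values. The gap between the probes was 0.43 ± 0.36 (SD, n = 4) with EXO-Post BSA against 0.82 ± 0.09 (SD, n = 3) with EXO-Post Palm, a difference that did not reach the threshold (exact permutation p = 0.143).

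Nfkbia encodes IkB-alpha, the inhibitor that is destroyed and made again most quickly in the classical pathway, and its probe (chr12:56590945-56591440, minus strand, mm9) crosses an intron. It read 2.91, 2.58, 2.59 and 3.19 with EXO-Post BSA and 2.91, 1.99 and 2.74 with EXO-Post Palm. The groups overlapped, and EXO-Post Palm replicate 2 was the lowest array. The difference was -0.27 (standard error 0.28, 95% confidence interval -0.91 to 0.38, limma adjusted p = 0.790), and without that array it was 0.0099.

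Nfkbib encodes IkB-beta, a further cytoplasmic inhibitor, and had 3 probes on chromosome 7 of mm9. Probe A_55_P1989733 (chr7:29544160-29544219, minus strand) read 1.30, 1.24, 1.32 and 1.36 with EXO-Post BSA and 0.95, 0.79 and 1.44 with EXO-Post Palm. EXO-Post BSA arrays agreed closely (SD 0.05), whereas EXO-Post Palm replicates 1 and 2 lay below and replicate 3 above them. The difference was -0.24 (standard error 0.22, limma adjusted p = 0.748). Probe A_66_P120882 (chr7:29545252-29546647, minus strand), which crosses an intron, read -0.73, -0.23, -0.19 and -0.25 with EXO-Post BSA and -0.61, 0.20 and -0.24 with EXO-Post Palm. Its difference was 0.14 (standard error 0.26, limma adjusted p = 0.891), so the direction of Nfkbib differed by probe, while the gap between these probes did not differ detectably between the groups (exact permutation p = 0.429). The third probe, A_55_P2051666 (chr7:29543270-29543329, minus strand), was well above background on 2 EXO-Post BSA arrays and 1 EXO-Post Palm array and was not tested. Its signals ran from -5.17 to -4.49 with EXO-Post BSA and from -4.88 to -3.67 with EXO-Post Palm.

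Nfkbie encodes IkB-epsilon, an inhibitor with slower resynthesis than IkB-alpha, and was measured by 1 probe (chr17:45700000-45700059, plus strand, mm9). It read -0.65, -0.83, -0.63 and -1.15 with EXO-Post BSA and -0.90, -1.60 and -1.12 with EXO-Post Palm. EXO-Post Palm replicate 2 was the lowest array, and the other 2 lay inside the EXO-Post BSA range. The difference was -0.39 (standard error 0.24, 95% confidence interval -0.95 to 0.16, limma adjusted p = 0.636). The 4 probes of these classical inhibitors had a median difference of -0.26, that of the 6 subunit probes was 0.53, and none of these 10 passed the adjusted threshold. The difference between the 2 roles was not tested.

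Nfkbiz encodes IkB-zeta, a nuclear IkB protein that works as a co-activator of secondary NF-kB targets such as Il6. Its probe (chr16:55817859-55817918, minus strand, mm9) read -2.65, -2.51, -2.96 and -2.97 with EXO-Post BSA and -1.96, -2.11 and -1.70 with EXO-Post Palm. Every EXO-Post Palm array lay above every EXO-Post BSA array, and the nearest arrays of the groups were replicate 2 of each. The difference was 0.85 (standard error 0.22, 1.80-fold, 95% confidence interval 0.35 to 1.34), with an exact permutation p of 0.0286. Its limma adjusted p of 0.204 was the lowest among the members. Over the limma alternatives and the methods' t-test after Benjamini-Hochberg adjustment, the adjusted p ran from 0.126 to 0.746. Over the alternatives the Nfkbiz difference ran from 0.50 to 0.94.

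Bcl3 encodes a nuclear IkB protein that binds p50 and p52 homodimers, and its probe (chr7:20393826-20393885, minus strand, mm9) read 0.29, -0.30, 0.09 and 0.32 with EXO-Post BSA and 0.75, 0.53 and 1.38 with EXO-Post Palm. EXO-Post Palm replicate 3 was the highest array, and the other 2 also lay above all EXO-Post BSA arrays. The difference was 0.79 (standard error 0.27, 1.73-fold, 95% confidence interval 0.17 to 1.41, limma adjusted p = 0.375, exact permutation p = 0.0286).

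Tnfaip3 encodes A20, a ubiquitin-editing enzyme that shuts off signalling from TNF and Toll-like receptors. Its probe (chr10:18720776-18720835, minus strand, mm9) read 1.19, 1.08, 1.11 and 0.96 with EXO-Post BSA and 0.72, 0.64 and 0.02 with EXO-Post Palm. The EXO-Post BSA arrays lay close together (SD 0.10) and above all EXO-Post Palm arrays, among which replicate 3 was the lowest. The difference was -0.62 (standard error 0.23, 95% confidence interval -1.14 to -0.10, limma adjusted p = 0.419, exact permutation p = 0.0286), which is 1.54-fold lower with EXO-Post Palm. It was the only member probe whose EXO-Post Palm arrays all lay below the EXO-Post BSA arrays. The promoter stretches of Tnfaip3 and Bcl3 above both hold the kappaB consensus, and their transcripts differed in opposite directions. Neither difference passed the adjusted threshold, and a link between the consensus and the direction was not tested.

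**Figure D2:**
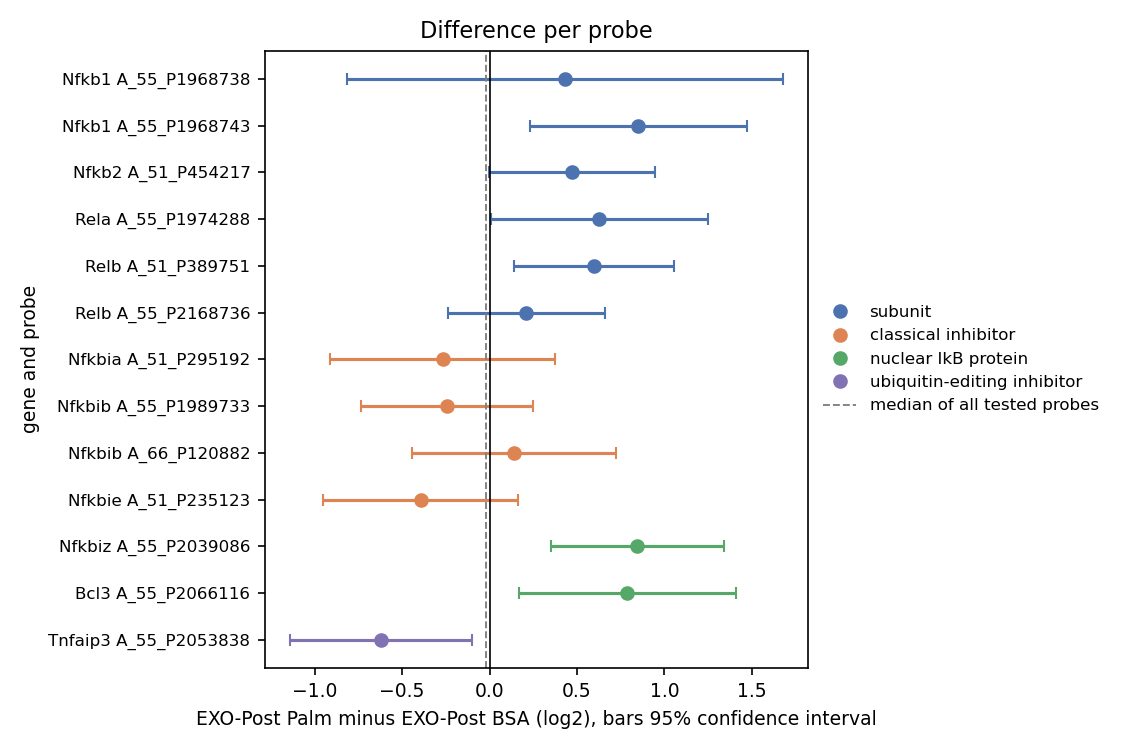
Difference between EXO-Post Palm and EXO-Post BSA on the log2 scale for each tested member probe, coloured by role, with bars for the 95% confidence interval and a dashed line at the median of all tested probes. The 6 subunit probes lie between 0.21 and 0.85, and the only interval wholly below 0 is that of Tnfaip3.

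The comparison was also made within the 2 slides that held both groups, with arrays already used above. On slide 1, EXO-Post Palm replicate 1 was set against the mean of EXO-Post BSA replicates 1 and 2, and on slide 3, EXO-Post Palm replicate 3 against EXO-Post BSA replicate 4. The direction over all arrays was seen on both slides for 9 of the 13 probes. These were the 6 subunit probes, Nfkbiz and Bcl3, all higher, and Tnfaip3, which was lower. For the 6 of these 9 whose groups do not overlap, both directions follow from that separation. Among the 9, only Rela, Nfkb1 A_55_P1968738 and Relb A_55_P2168736 could have differed between slides. The share of all tested probes with 1 direction on both slides was not computed. The other 4 probes, those of Nfkbia, Nfkbib and Nfkbie, were higher on 1 slide and lower on the other. For Nfkbiz the differences were 0.61 on slide 1 and 1.26 on slide 3, and for Bcl3 they were 0.76 and 1.06. For Tnfaip3 they were -0.41 and -0.94. For Nfkb1 probe A_55_P1968743 they were 1.25 and 0.26. For Relb probe A_51_P389751 they were 0.52 and 0.53. With slide as a block the differences were 0.89 for Nfkbiz, 0.89 for Bcl3, -0.64 for Tnfaip3, 0.41 for Rela and 0.33 for Nfkb2, and those of Nfkbia and Nfkbie shrank to -0.095 and -0.079. That of Nfkb1 probe A_55_P1968738 grew to 1.26, because this fit draws only on slides that hold both groups and so leaves EXO-Post Palm replicate 2 without weight. None of the 13 passed the limma adjusted threshold in this fit.

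**Figure D3:**
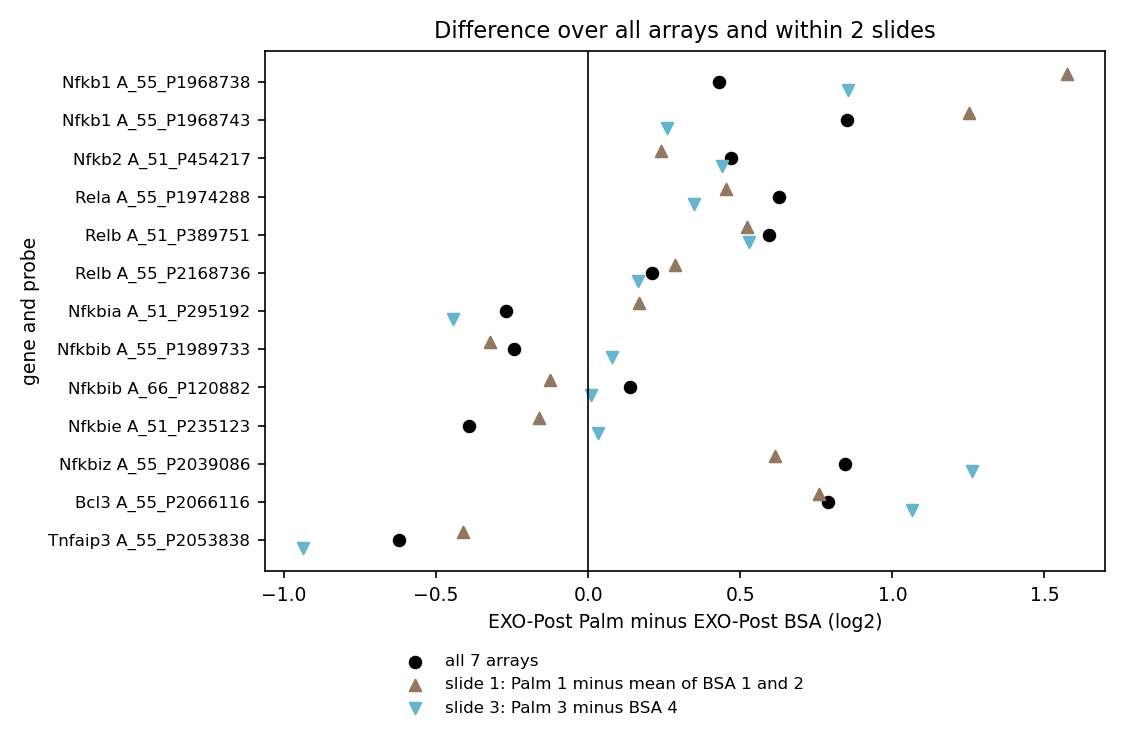
Difference between EXO-Post Palm and EXO-Post BSA on the log2 scale for each tested member probe, over all 7 arrays (circles), on slide 1 (upward triangles) and on slide 3 (downward triangles). All 3 symbols lie above 0 for the 6 subunit probes, Nfkbiz and Bcl3, all 3 lie below 0 for Tnfaip3, and those of the classical inhibitors fall on both sides.

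The rest of the pathway was described with a list of 75 further genes, of which 61 were tested. By limma 31 were higher and 30 lower, with a median of 0.004. None passed the adjusted threshold, which 0.533% of all tested probes passed. At an unadjusted p under 0.05 there were 2, both lower by limma and both also lower by the methods' t-test. They were Tab2, an adaptor of the kinase TAK1, and Tlr6, a receptor for bacterial lipopeptides. Of all tested probes 4.85% were higher and 5.19% lower at an unadjusted p under 0.05 by limma. Tab2 read 1.49, 1.04, 0.98 and 0.92 with EXO-Post BSA and 0.85, -0.87 and -0.27 with EXO-Post Palm, a difference of -1.20 (standard error 0.38, limma adjusted p = 0.331). EXO-Post Palm replicate 1 lay just under the EXO-Post BSA range and the other 2 far below it. Tlr6 differed by -0.67 (standard error 0.26, limma adjusted p = 0.434).

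Among the ligands 3 of 4 were higher, with 0.30 for Il1b, 0.14 for Il18 and -0.20 for Tnfsf12, the cytokine TWEAK. Of 11 receptors 4 were higher, among which Il1rl1, the receptor of IL-33, differed by 0.69, Tlr4 by 0.29 and Il1r1 by 0.27. The lower ones included Tnfrsf1b, a TNF receptor, by -0.55 and Tnfrsf12a, the TWEAK receptor, by -0.41. Of 27 adaptors and kinases 13 were higher and 14 lower. Sharpin, a part of the linear ubiquitin ligase, differed by 0.54, but by 0.074 without EXO-Post BSA replicate 4, its lowest array. The Toll-like receptor adaptor Myd88 differed by 0.43 and Tab1 by 0.36, and the adaptor Ticam1 differed by -0.38 and the ubiquitin ligase Birc2 by -0.36. Of 18 other negative regulators 10 were higher and 8 lower. Tnip2, which binds A20, differed by 0.34, and Commd1 and Nkiras1 by 0.31 and 0.30. The lower ones included Ppm1b (-1.59), Nkiras2 (-0.30) and Itch (-0.16), of which Ppm1b took its value from EXO-Post Palm replicate 2 alone, while its other 6 arrays read 3.07 to 3.55. Each gene is given by its brightest probe, and Ppm1b, Nkiras2 and Tnfsf12 each had 2 tested probes, 1 higher and 1 lower. Of the other Rel and IkB proteins, Nfkbid differed by 0.15 and Rel did not pass the filter. The lowest limma adjusted p among these named genes was 0.550, that of Tnfrsf1b.

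Of 38 genes listed as textbook NF-kB targets, 37 were on the array and 25 were tested, 17 higher and 8 lower, with a median of 0.22. The list was chosen with earlier results of these arrays known for Il6, Cxcl1 and Cxcl5. Its counts and median are therefore not independent of these data. By limma 1 passed the adjusted threshold and 7 had an unadjusted p under 0.05, all higher. The groups of 8 did not overlap, 7 higher and 1 lower. Of all tested probes 0.533% passed the adjusted threshold, and the groups of 11.3% did not overlap. At an unadjusted p under 0.05 by limma 4.85% of all tested probes were higher and 5.19% lower. The target that passed was Cxcl5, a neutrophil chemokine. It read -0.29, -0.88, -0.97 and -0.53 with EXO-Post BSA and 3.69, 2.51 and 4.45 with EXO-Post Palm, a difference of 4.22 (standard error 0.42, limma adjusted p = 0.0108). Its adjusted p became 0.0565 when EXO-Post BSA replicate 1 was left out, 0.0548 when replicate 1 of EXO-Post Palm was, 0.0741 with no filter on dim probes, 0.107 with a replicate block and 0.182 with the methods' t-test after Benjamini-Hochberg adjustment. Il6, a cytokine also secreted by muscle, differed by 3.14 (limma adjusted p = 0.105) and read -3.97 to -3.40 with EXO-Post BSA and -0.30, -2.30 and 1.00 with EXO-Post Palm. Cxcl1, a chemokine related to Cxcl5, differed by 2.87 (limma adjusted p = 0.0862), with -3.24 to -2.06 against 0.11, -1.30 and 1.32. With slide as a block both passed by limma, and 3 targets passed in all. Il6 then differed by 4.05 (adjusted p = 0.0327) and Cxcl1 by 3.35 (adjusted p = 0.0385). That fit leaves EXO-Post Palm replicate 2 without weight. Leaving this array out gave 4.02 for Il6 (limma adjusted p = 0.0121) and 3.55 for Cxcl1 (limma adjusted p = 0.0152). With any other single array left out, both had a limma adjusted p of 0.155 or more. With no array left out, both also passed by limma with median scaling, array weights or only probes well above background on all 7 arrays. Cxcl1 alone passed with normexp, the authors' processed values or slide as a random block. Neither passed with quantile normalization of the processed signal, no filter on dim probes, a replicate block or a trended and robust variance. For Cxcl5, Il6 and Cxcl1, EXO-Post Palm replicate 2 was the lowest and replicate 3 the highest EXO-Post Palm array. Among the members the same order was seen for Nfkbiz, Bcl3, Relb A_51_P389751 and Nfkbib A_55_P1989733, and not for the other tested probes. The 4 other targets with an unadjusted p under 0.05 were named after their values were seen, and were the acute phase gene Saa3 (2.32), the prostaglandin synthase Ptgs2 (0.85), the superoxide dismutase Sod2 (0.51) and Ier3 (0.52). Lcn2, Gadd45b and Tnc had the largest differences in the lower direction, of -0.56, -0.43 and -0.43, with limma adjusted p of 0.555, 0.714 and 0.779. The medians of the targets and of the members lay above that of all tested probes, and the median of the other pathway genes lay close to it.

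**Figure D4:**
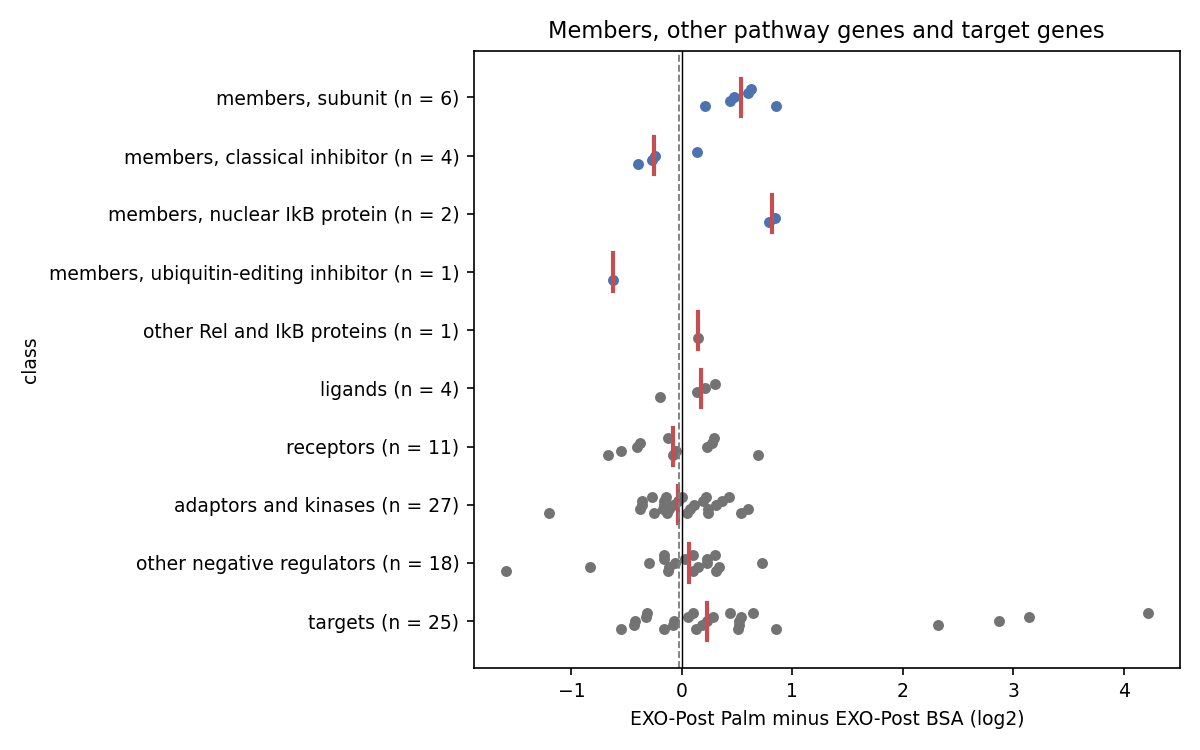
Difference between EXO-Post Palm and EXO-Post BSA on the log2 scale for each tested member probe by role (upper classes) and for the brightest probe of each other pathway or target gene (lower classes), with a red bar at the median of each class and a dashed line at the median of all tested probes. Adaptors and kinases centre near 0, and 4 targets, led by Cxcl5 at 4.22, lie above 2.

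The identity of the cells was checked with marker lists, whose summed signal was taken to the log2 scale. Of 10 genes of differentiated muscle, 9 were well above background on all 7 arrays, among them Myog, Myh3, Acta1 and Tnnc2. The paper describes the recipient cells as myotubes, although the labels give the cell type as myoblast. The summed level of this list was 9.57 to 9.84 with EXO-Post BSA and 9.35 to 9.55 with EXO-Post Palm. That of 4 myoblast genes was 4.60 to 4.97 and 5.19 to 5.50. The ranges of both lists did not overlap between the groups, but those of the muscle list nearly met, at 9.57 and 9.55. Of the muscle genes only Myh3 (-0.46) and Myh8 (-0.65) had groups that did not overlap, as had 11.3% of all tested probes. Myog differed by -0.07 and Acta1 by -0.08, and Ckm was higher by 0.35. Among the myoblast genes Des differed by 0.50, Myod1 by 0.03 and Pax7 by -0.21, and Myf5 was well above background on no array. Such a sum is weighted towards the brightest probe, which in the myoblast list was that of Des. Its EXO-Post BSA mean was 4.68, where that of Myod1 was 1.70 and that of Pax7 was -1.42. The sum of this list therefore mostly followed Des and does not show a rise shared by the myoblast genes. Of 6 macrophage genes, a cell type known for NF-kB driven cytokines, 2 were well above background on all arrays. Their summed level was 0.79 to 1.15 with EXO-Post BSA and 1.32 to 2.02 with EXO-Post Palm. Of this list Cd14 differed by 1.05 (limma adjusted p = 0.219), Lyz2 was well above background on no array, Cd68 on 1 and Ptprc on 2. The 4 fibroblast genes summed to 4.80 to 6.33 and 5.75 to 5.94, with Lum higher by 1.45 (limma adjusted p = 0.105). The 4 endothelial genes summed to 2.05 to 2.40 and 1.61 to 2.63, with Cdh5 and Tek well above background on no array. Kdr and Pecam1 were well above background on all 7 and differed by -0.07 and -0.03. None of 4 adipocyte genes was well above background on all arrays, and their sums were -3.82 to -2.52 and -3.23 to -3.03. None of these markers passed the adjusted threshold, and their part in the differences of the members was not tested. In RNA of whole cultures, fewer cells of a type and less RNA per cell cannot be told apart.

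Probes with a pattern most like that of Nfkbiz and of Nfkb1 A_55_P1968743, the members with the smallest unadjusted p, were sought among the tested probes that carry a RefSeq gene name and had a value on every array. For Nfkbiz, Pearson's r over the 7 arrays was highest for 9530077C05Rik (0.992), Gins1 (0.992), Fam83d (0.991), Gm6195 (0.987) and Mybl2 (0.987). Gins1 is a replication factor, and Mybl2 is a transcription factor of dividing cells. Their differences were 1.27 for Gins1, 2.53 for Fam83d and 1.19 for Mybl2, with limma adjusted p of 0.122, 0.0702 and 0.0854. For Nfkb1 it was highest for Nfib (0.986), Vax2os1 (0.981), Gm2046 (0.981), Tmem55b (0.981) and C030006K11Rik (0.981). These are the highest of 17511 and 17510 correlations over 7 arrays that share the difference between the groups, and they are given as a description.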

How the data were processed

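For each 1-colour Agilent array the authors deposited the scanner software's output, in which the processed signal is a background-subtracted intensity not normalised between arrays. The authors also deposited a table of log2 values with the same distribution on every array. It was joined by row order (rank correlation of 0.994 to 0.999 with the array's own signal, highest with another array's 0.973). Per the labels the processing used Feature Extraction 9.1 and limma, while the file headers give Feature Extraction 10.7.3.1 and, for EXO-Post BSA replicate 3, 11.5.1.1.

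Log2 signals minus each array's 75th percentile over 43020 non-control spots were fitted with limma 3.58.1 (R 4.3.3) on condition. P-values were 2-sided, adjusted by Benjamini-Hochberg over 21589 probes. Single probes also received an exact permutation test over 35 splits. Each member probe has 1 spot, none marked as an outlier. The number of arrays limits the precision. In simulated data 69 of 100 probes changed by 2 and 21 of 100 changed by 1 on the log2 scale were called.

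The members, lists, alternatives and rule for named genes were chosen with earlier results of these data known. Named were all members, list genes past the threshold, the 3 largest differences each way per class among probes bright on all 7 arrays, and the 5 probes most like each of 2 members. A gene of several probes is given by its brightest. The normexp alternative used median in place of mean spot signals, since 1 array's file lists no mean.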

Additional observations from a re-analysis of the deposited data

Results flagged for a closer look

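Single arrays stood apart from the rest of their group by Dixon's test in 2 of 42 sets of 4 EXO-Post BSA arrays examined, and chance marks about 1 in 20. The Nfkbib probe A_66_P120882 read -0.73 on EXO-Post BSA replicate 1, where the other EXO-Post BSA arrays read -0.25 to -0.19. The receptor gene Il1rl1 read -3.78 on EXO-Post BSA replicate 2, where the others read -2.66 to -2.53.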

How the results depend on the processing

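No member probe passed the limma adjusted threshold in any of 18 limma alternatives, and 9 of the 13 kept 1 direction in all of them. With the methods' t-test, unadjusted, 6 members passed (5 higher, 1 lower), with 2 pathway genes, 9 targets and 2108 of all probes, and with Benjamini-Hochberg adjustment of that test 0 of all probes and 0 targets. The count of 115 among all probes became 0 without a filter on dim probes, 181 with slide as a random block, 173 with a trended and robust variance, and 0 to 202 with 1 array left out. Leaving out EXO-Post BSA replicate 1, 2, 3 or 4 gave 0, 44, 21 or 68, and leaving out EXO-Post Palm replicate 1, 2 or 3 gave 7, 202 or 27. No clear pairing of the samples by replicate number was seen (correlations of 0.12, -0.15 and -0.15, and not every sample correlated best with its own number). So few correlations cannot exclude a pairing. With a replicate block 0 of all probes, 0 members and 0 targets passed. The target count of 1 became 2 with normexp, with the authors' processed values or with slide as a random block, 3 with median scaling, with only probes well above background on all 7 arrays, with slide as a fixed block or with array weights, 0 without a filter, and 0 to 4 with 1 array left out. The member probes whose groups do not overlap were 6 in most settings (11.3% of all tested probes as reported). They were 4 with median scaling (8.41%), where Nfkb2 and Bcl3 overlapped, and 6 to 8 with 1 array left out (14.1 to 22.5%). Leaving out an array cannot make separate groups overlap, so fewer than 6 was not possible there. With no filter, or with only probes well above background on all 7 arrays, the member values were unchanged, so their count was fixed.

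Directions that reversed were those of Relb A_55_P2168736 with normexp (-0.11) and with the authors' processed values (-0.14), of Nfkbib A_66_P120882 with normexp (-0.026), the authors' processed values (-0.050), slide as a fixed block (-0.067) and without EXO-Post Palm replicate 2 (-0.071), of Nfkbia without EXO-Post Palm replicate 2 (0.0099) and of Nfkb1 A_55_P1968738 without EXO-Post Palm replicate 1 (-0.12). With 1 array left out, the values ran from -0.45 to 0.0099 for Nfkbia, from -0.12 to 1.17 for this Nfkb1 probe and from -0.071 to 0.33 for this Nfkbib probe. The cause was not tested. The 13 tested probes were called well above background on all 7 arrays, which does not show that background left their differences unaffected. On EXO-Post Palm replicate 2 the intensity of Nfkb1 A_55_P1968738 was 40.7. That lies inside the range of the untested Nfkbib probe A_55_P2051666, 18.7 to 66.6, which has no usable difference.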
